A study of Homo sapiens with 8 samples.

Results

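The lymphoid and myeloid marker genes described here are 10 genes whose products are used to recognise T cells (CD3E, CD3G, CD3D, CD247, LCK), B cells (CD79B), leukocytes in general (PTPRC, CORO1A, CD52) and myeloid cells (LYZ). They were taken by name from the 57500 genes of the count table, and all 10 were found there by their Ensembl identifier, matched to GENCODE symbols. The genes were selected on the measured difference in their counts between DZNep and Control libraries, so their levels and fold changes are given as a description, with no test. Measures that played no part in the choice, such as position and promoter sequence, are given beside them.

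The series comprised 8 RNAseq libraries from HEK293T cultures, of which 4 had received vehicle (Control) and 4 had received DZNep at 100 µM, all for 48 h. DZNep (3-deazaneplanocin A) inhibits S-adenosylhomocysteine hydrolase, so that S-adenosylhomocysteine accumulates and methyltransferases are inhibited. HEK293T is a single established line derived from human embryonic kidney that carries the SV40 large T antigen, in both groups, and nothing in the design separates effects of this line from those of the drug in other cells. The sample labels name DMEM as the medium, whereas the methods text names RPMI.

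In T cells the antigen receptor itself has no signalling tail. It is carried to the surface with the CD3 gamma, delta and epsilon chains and the zeta chain (CD247), whose cytoplasmic motifs are phosphorylated by the kinase LCK after the phosphatase CD45 (PTPRC) has released LCK from its inhibited state. CD79B is the matching signalling chain of the B cell receptor. Most of these genes are normally transcribed in blood cells and silent in kidney epithelium.

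The library totals ranged from 25043058 to 44902779 counts. Levels are given as counts, as CPM, counts relative to the library total scaled by edgeR's TMM factors, and, where genes are compared with each other, as CPM per kb of exon. A gene without counts in a library was given a floor of 3 counts, which equalled between 0.0712 and 0.123 CPM in a Control library and covers counting error only. DZNep replicate 2 stood apart from the other libraries. In it, 25 genes with at least 20 counts were more than 5 times the level of every other library, and 45 genes were more than 5 times lower than in every other library, against at most 18 and 2 genes in any of the other libraries. The values that this library moves most, those of LYZ and CD52 and the summed levels of some gene lists, are therefore also given without it, and whether RNA from another sample was present in this library, or in the other 7, was not tested. The line was checked against 16 HEK293 and kidney developmental markers, of which 14 passed the filter on low counts. Their summed level was 1045 to 1659 CPM in Control and 1300 to 1509 CPM in DZNep libraries, led by VIM (vimentin) with 667 CPM in Control and 721 CPM in DZNep. KRT8 (keratin 8) rose by a log2 fold change of 2.44 and LHX1, a homeobox gene of the early kidney, fell by 1.43 on the log2 scale (edgeR adjusted p = 0.000133 and 0.00593). PAX8, a transcription factor of the renal epithelium, had at most 2 counts in a Control library and at most 8 in a DZNep library.

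Promoter sequence was available from RefSeq (GRCh38.p14) for 6 of the 10 genes with 7 start sites, and was examined because CD3E and CD3G had no counts in Control and LCK almost none while CORO1A was already expressed. CD3E, CD3G, LYZ and CD79B were not among these entries. The windows below are the promoters of CD3D, the gene that shares a short intergenic region with CD3G, of LCK at its upstream start (start 1) and at a start inside the gene (start 2), and of CORO1A, whose RefSeq start lies inside the longer GENCODE gene. Each covers up to 250 bases before the start, cut short where an annotated exon begins, and is written 5′ to 3′ on the strand of the gene. Capitals mark the core of an ETS site (AGGAAG), of a RUNX site (TGTGGT) or of a GC box (GGGCGG) on either strand.
CD3D, chr11:118342706-118342955, minus strand: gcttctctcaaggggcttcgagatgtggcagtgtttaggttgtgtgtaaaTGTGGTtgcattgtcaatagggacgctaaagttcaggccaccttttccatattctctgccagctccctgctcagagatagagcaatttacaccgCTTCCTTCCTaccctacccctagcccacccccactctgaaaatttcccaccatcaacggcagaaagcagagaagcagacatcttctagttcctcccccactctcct
LCK start 1, chr1:32251015-32251243, plus strand: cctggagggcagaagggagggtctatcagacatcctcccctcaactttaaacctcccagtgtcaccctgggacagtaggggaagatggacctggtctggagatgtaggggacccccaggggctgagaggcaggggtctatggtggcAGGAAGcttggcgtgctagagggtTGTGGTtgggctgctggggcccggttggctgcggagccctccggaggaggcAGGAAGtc
LCK start 2, chr1:32273871-32274112, plus strand: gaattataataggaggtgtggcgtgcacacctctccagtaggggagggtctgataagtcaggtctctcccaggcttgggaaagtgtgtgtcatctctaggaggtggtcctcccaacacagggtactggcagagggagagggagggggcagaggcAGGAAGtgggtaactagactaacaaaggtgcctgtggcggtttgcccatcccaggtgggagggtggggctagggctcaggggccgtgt
CORO1A, chr16:30183352-30183504, plus strand: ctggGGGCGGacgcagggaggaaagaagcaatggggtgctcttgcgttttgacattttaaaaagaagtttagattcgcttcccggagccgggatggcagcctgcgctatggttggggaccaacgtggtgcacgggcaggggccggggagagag

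Within the whole 250 bases, the CD3D window held 2 ETS matches, which overlap each other on the opposite strand, and 1 RUNX match. LCK start 1 held 2 ETS matches and 1 RUNX match, and LCK start 2 held 1 ETS match. The windows of CD247, PTPRC and CD52 held 2, 3 and 2 ETS matches. The CORO1A window held 0 ETS matches and 3 GC boxes, of which 1 lies in the printed stretch. An ETS match was present in 28.7% of all 35114 promoter windows, a RUNX match in 10.98% and a GC box in 42.6%. An E-box (CAGCTG, in 14.0% of all windows), a GATA site (AGATAA, 9.17%) and a TATA box (TATAAA, 10.7%) were looked for in the same way, and these letters were in none of the 7 windows. CORO1A was the CpG-rich promoter of the set, with 23 CpG dinucleotides, an observed over expected CpG ratio of 0.842 and 68% GC. The ratio was between 0.165 and 0.298 in the other 6 windows, whereas 47.5% of all promoter windows had a ratio over 0.6. These matches describe letters in a window and do not show that a factor binds there.

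Of the 10 genes, 5 (CD3E, CD3G, LCK, CORO1A and CD79B) were higher in all 4 DZNep libraries than in any Control library, 0 were lower in all 4, and the groups overlapped for CD3D, CD247, PTPRC, LYZ and CD52. Over all 19171 genes that passed the filter on low counts, 18.6% lay wholly above and 20.2% wholly below Control. The choice of genes fixed this count, so nothing is read from the comparison. Without DZNep replicate 2 these 5 genes, and no other of the 10, lay above Control. Only 7 of the 10 genes passed that filter, and CD3G, LCK and CD79B passed through the DZNep libraries alone. CD3E, CD3D and CD247 did not, and their counts are given without a fitted value. In RNA from whole cultures, a few cells with much of a transcript and many cells with little of it cannot be told apart, and the same holds for fewer cells and less RNA per cell.

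CD3E, the epsilon chain that pairs with both other CD3 chains, went from no counts to a low but present level. The gene (ENSG00000198851) lies on the plus strand at chr11:118304730-118316175 (GRCh38, GENCODE 44). It had 0 counts in all 4 Control libraries and 9, 21, 18 and 36 counts in DZNep replicates 1 to 4. Every DZNep library thus held more counts than the floor allows for a Control library, with the highest count in replicate 4. The DZNep mean was 0.529 ± 0.363 CPM (SD, n = 4), at least 6.01-fold higher than the mean floor of 0.0881 CPM in Control. The SD is large because replicate 4, at 1.05 CPM, was far above replicate 1, at 0.215 CPM. Without DZNep replicate 2 the mean was 0.559 ± 0.439 CPM.

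CD3G, the gamma chain, showed the same change with a smaller spread. The gene (ENSG00000160654, plus strand, chr11:118344344-118355161) had 0 counts in each Control library and 13, 17, 20 and 11 counts in DZNep replicates 1 to 4. All 4 DZNep libraries lay above the floor and close to each other. The mean was 0.361 ± 0.0649 CPM, at least 4.10-fold higher than the Control floor, and 0.362 ± 0.0795 CPM without DZNep replicate 2. CD3E and CD3G did not rank the libraries alike, since replicate 4 was the highest for CD3E and replicate 3 for CD3G.

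CD3D, the delta chain, lies between them but was hardly detected. The gene (ENSG00000167286, minus strand, chr11:118339075-118342705) is transcribed away from CD3G, and the starts of the pair are 1639 bases apart. It had 0 counts in Control and 0, 1, 2 and 2 counts in DZNep replicates 1 to 4, none above the floor of 3 counts, so no fold is given and a difference was not detectable at this depth. The 3 CD3 genes span 50.4 kb of chromosome 11 and thus differed in level within a short stretch, with summed DZNep counts of 84 for CD3E, 61 for CD3G and 5 for CD3D.

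CD247, which encodes the zeta chain with the largest signalling tail of the complex, lies on another chromosome (ENSG00000198821, minus strand, chr1:167425027-167518640). Its counts were 4, 1, 7 and 1 in Control and 4, 3, 6 and 3 in DZNep replicates 1 to 4. The groups overlapped entirely and no library was far from the rest. The ratio of the summed counts, 13 in Control and 16 in DZNep, was 1.05 with a 95% exact interval of 0.473 to 2.37 for counting error, so at this depth a change within those bounds could not be seen. The end of CD247 overlaps POU2F1 on the opposite strand over 2319 bases. The sources used here do not say whether the counting used strand, so reads in that stretch cannot be told apart.

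LCK, the SRC family kinase that starts receptor signalling, was close to 0 in Control and present in every DZNep library. The gene (ENSG00000182866) is on the plus strand at chr1:32251244-32286165. It had 3, 0, 1 and 1 counts in Control and 13, 21, 16 and 15 in DZNep replicates 1 to 4. The lowest DZNep library exceeded the highest Control library, and the DZNep libraries differed little from each other. Its mean was 0.0439 ± 0.0541 CPM in Control and 0.388 ± 0.0634 CPM in DZNep. The summed counts were 5 and 65, a ratio of 11.1 with a 95% exact interval of 4.51 to 35.3. Since the Control sum rests on few counts, the fitted log2 fold change moved with the library left out, from 2.84 without Control replicate 2 to 4.28 without Control replicate 1.

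CD79B, the beta chain of the B cell receptor's signalling pair, showed the same pattern outside the T cell genes. The gene (ENSG00000007312, minus strand, chr17:63928738-63932336) had 0, 1, 0 and 2 counts in Control and 19, 12, 16 and 25 in DZNep replicates 1 to 4. The groups did not overlap and each DZNep library was above the floor. The mean went from 0.0203 ± 0.0273 CPM to 0.450 ± 0.205 CPM, with DZNep replicate 4 highest at 0.731 CPM and replicate 2 lowest at 0.252 CPM. The summed counts of 3 and 72 gave a ratio of 20.5 with an exact interval of 6.73 to 102. A second protein-coding gene model, ENSG00000285947, overlaps CD79B on the same strand over 2648 bases and was not in the count table. CD79A, its partner chain, did not pass the thresholds, with a log2 fold change of -0.66 ± 0.45 (SE, edgeR adjusted p = 0.268) and counts of 10, 10, 12 and 21 in Control and 10, 9, 6 and 14 in DZNep.

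CORO1A, which encodes the actin-binding coronin 1A of leukocytes, was the only gene of the set at a substantial level in Control. The gene (ENSG00000102879) is on the plus strand at chr16:30182827-30189076. Its counts were 269, 467, 329 and 532 in Control and 1129, 1076, 906 and 1251 in DZNep replicates 1 to 4. All DZNep libraries were above all Control libraries, and replicate 4 was the highest of its group in both. The mean was 11.3 ± 3.05 CPM in Control and 26.7 ± 7.13 CPM in DZNep, a log2 fold change of 1.24 ± 0.24 (SE) or 2.36-fold. Taken by replicate number, the difference in log2(CPM + 0.5) was 1.25, 1.00, 1.33 and 1.23 in replicates 1 to 4. The difference was thus of similar size under each replicate number, and it did not rest on DZNep replicate 2, without which the log2 fold change was 1.31. An antisense transcript, CORO1A-AS1, overlaps the gene over 1453 bases but had 23 counts in all 8 libraries together.

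PTPRC encodes CD45, the tyrosine phosphatase found on nearly all nucleated blood cells (ENSG00000081237, plus strand, chr1:198638457-198757476). Its counts were 50, 54, 41 and 49 in Control and 59, 84, 90 and 66 in DZNep replicates 1 to 4. In counts the groups were separate, but Control replicate 1 was the shallowest library, and in CPM they overlapped, with Control replicate 1 (2.05 CPM) and DZNep replicate 3 (2.04 CPM) at the top. The mean was 1.43 ± 0.449 CPM in Control and 1.79 ± 0.276 CPM in DZNep, a log2 fold change of 0.33 ± 0.27 (SE). By replicate number the difference in log2(CPM + 0.5) was -0.42, 0.35, 0.78 and 0.35. The sign was thus opposite in replicate 1, and the difference was no larger than the spread between libraries.

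LYZ, which encodes the lysozyme of macrophages and granulocytes, was high in a single library (ENSG00000090382, plus strand, chr12:69348381-69354234). Its counts were 20, 22, 24 and 17 in Control and 25, 559, 25 and 22 in DZNep replicates 1 to 4. DZNep replicate 2 was above every other library and the other 3 DZNep libraries lay within the range of Control. The mean of all 4 DZNep libraries was 3.39 ± 5.57 CPM against 0.602 ± 0.149 CPM in Control, with DZNep replicate 2 at 11.8 CPM. Without it the DZNep mean was 0.603 ± 0.0386 CPM. The log2 fold change was 2.52 ± 1.00 (SE) with and 0.02 ± 0.33 without DZNep replicate 2.

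CD52, which encodes a small surface glycopeptide anchored by lipid on lymphocytes and monocytes, behaved like LYZ (ENSG00000169442, plus strand, chr1:26317958-26320523). It had 8, 17, 5 and 21 counts in Control and 15, 115, 14 and 18 in DZNep replicates 1 to 4. Only DZNep replicate 2 was outside the Control range. Its mean was 0.364 ± 0.200 CPM in Control and 0.905 ± 1.01 CPM in DZNep, and 0.401 ± 0.111 CPM in DZNep without replicate 2. The log2 fold change of 1.33 ± 0.72 (SE) became 0.14 ± 0.52 without that library. CD52 overlaps UBXN11 on the opposite strand over 406 bases. UBXN11 had 535 counts in DZNep replicate 2 and 374 to 683 in the other libraries, so it did not share the high value.

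**Figure D1:**
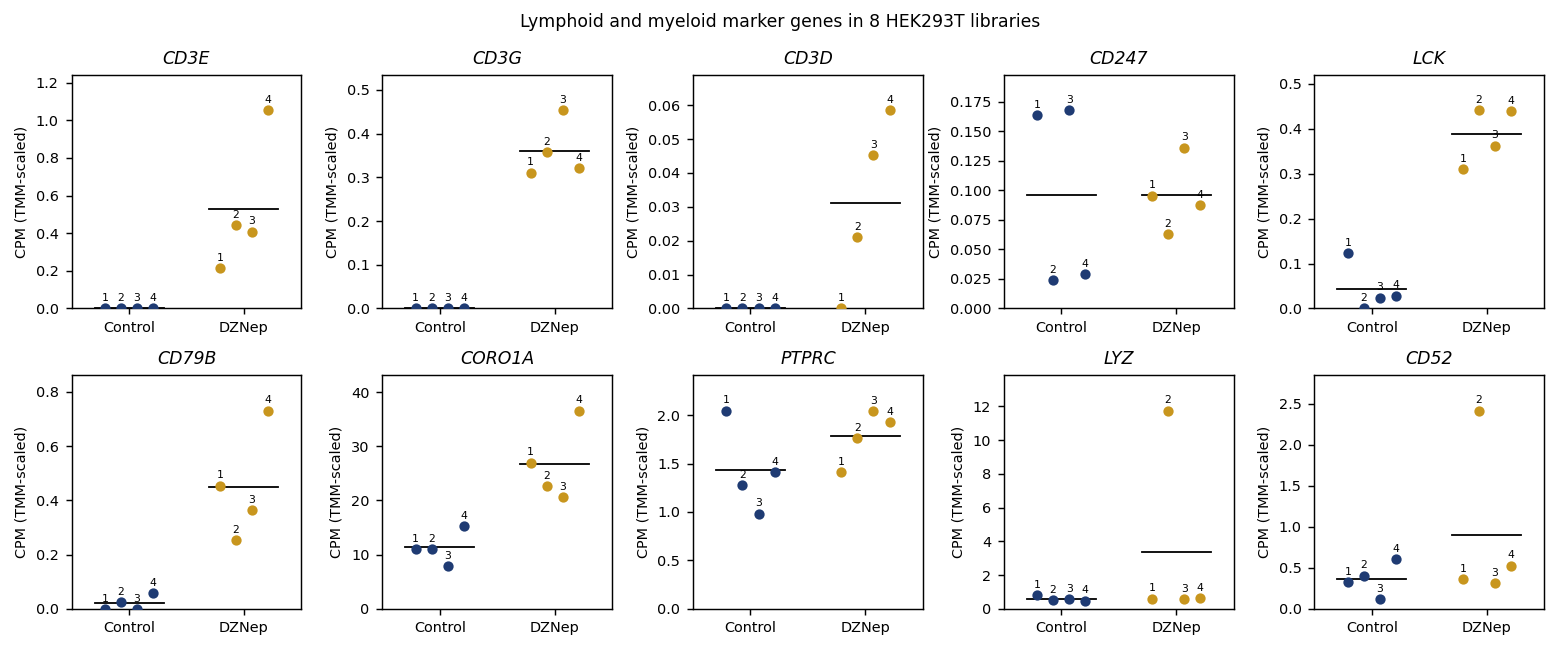
Levels of the 10 marker genes in CPM (TMM-scaled, linear axes from 0, a scale of its own for each gene). Points are libraries, numbered by replicate, and the black line is the group mean (n = 4). CD3E, CD3G, LCK, CD79B and CORO1A are separate between the groups, whereas LYZ and CD52 are high in DZNep replicate 2 alone, at 11.8 and 2.42 CPM.

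Exon length was taken over all annotated exons of a gene together, which can exceed the length of its main transcript. It ranged from 934 bases for CD52 to 15436 for PTPRC, and every level per kb and order below depends on it. Per kb of exon, the order of the genes in Control was CORO1A (2.37 CPM per kb), CD52 (0.390), LYZ (0.349), PTPRC (0.0927), LCK (0.0132), CD247 (0.0103) and CD79B (0.00957), with the 3 CD3 genes at 0. Neighbours in this order had separate ranges only between CORO1A and CD52, between LYZ and PTPRC, and between PTPRC and LCK. In DZNep the order was CORO1A (5.58 CPM per kb), LYZ (1.97), CD52 (0.969), CD79B (0.212), CD3E (0.199), LCK (0.117), PTPRC (0.116), CD3G (0.0941), CD247 (0.0102) and CD3D (0.00916). Here only CD3G and CD247 had separate ranges among neighbours. The levels of LYZ and CD52 rested on DZNep replicate 2. Without it they were 0.350 and 0.429 CPM per kb, CD52 ranked above LYZ, PTPRC (0.116) above LCK (0.111), and CORO1A (5.87) was also separate from the next gene. Over all DZNep libraries the ranges of CD79B, CD3E, LCK and CD3G overlapped that of PTPRC. Without DZNep replicate 2 the range of CD79B (0.171 to 0.344) lay above that of PTPRC (0.0913 to 0.132), while those of CD3E, LCK and CD3G still overlapped it. Set against all genes that passed the filter, CORO1A had a higher level per kb than 47.3% of genes in Control and 65.6% in DZNep. CD3E, at 12.6% in DZNep, CD79B, at 13.2%, LCK, at 7.18%, and CD3G, at 5.48%, remained among the low genes.

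**Figure D2:**
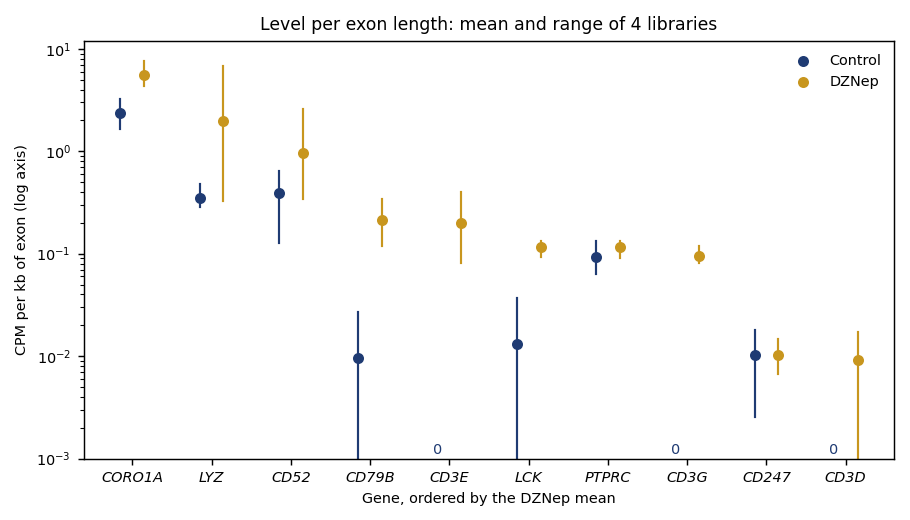
Level of each marker gene in CPM per kb of exon on a log axis, the exon length being that of all annotated exons together. Points are the mean and lines the lowest to highest of 4 libraries, for Control and DZNep. A printed 0 marks a group without counts, and a line that reaches the lower edge includes a library at 0. In DZNep CD79B, CD3E, LCK and CD3G lie near PTPRC, between 0.0941 and 0.212 CPM per kb.

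The profile of LYZ over the libraries was next set against those of all tested genes outside the marker set. The genes with the profile most like LYZ over the 8 libraries, by the root mean square difference of centred log2(CPM + 0.5), were LSP1 (0.354), an actin-binding protein of leukocytes, SLAMF7 (0.407), a receptor of lymphocytes and macrophages, and MSR1 (0.544), a macrophage scavenger receptor. LSP1 had 299 counts in DZNep replicate 2 and 8 to 26 in the other 7 libraries. SLAMF7 had 179 against 7 to 19, and MSR1 had 103 against 3 to 13. These 3 genes were chosen for a profile like that of LYZ, so being high in that library alone follows from the choice.

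Among the 25 genes above 5 times every other library in DZNep replicate 2 were further macrophage genes and epithelial keratins, named here after their values were seen. C1QC, a chain of complement C1q, had 55 counts against at most 3, the chemokine gene CXCL9 had 169 against at most 1, and KRT5, a basal keratin, had 367 against at most 7. In the other direction, the neutrophil elastase gene ELANE had 0 counts in DZNep replicate 2 and 72 to 157 in the other 7 libraries, and PRTN3, its neighbour in the same granule family, had 5 against 38 to 83. COL1A2, a collagen gene of fibroblasts, had 19 counts against 1002 to 1816. The library therefore differed from the rest in both directions, in genes of several cell types. Of 30 myeloid list genes, 26 had at least 10 counts over the 8 libraries, and DZNep replicate 2 was the lowest library for 12 and the highest for 5 of them. Of 29 such pan-leukocyte genes it was the lowest for 16 and the highest for 2. The same was not counted over all genes, so these counts are not read as particular to leukocyte genes. The part of such genes in the values of LYZ and CD52 was not tested.

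**Figure D3:**
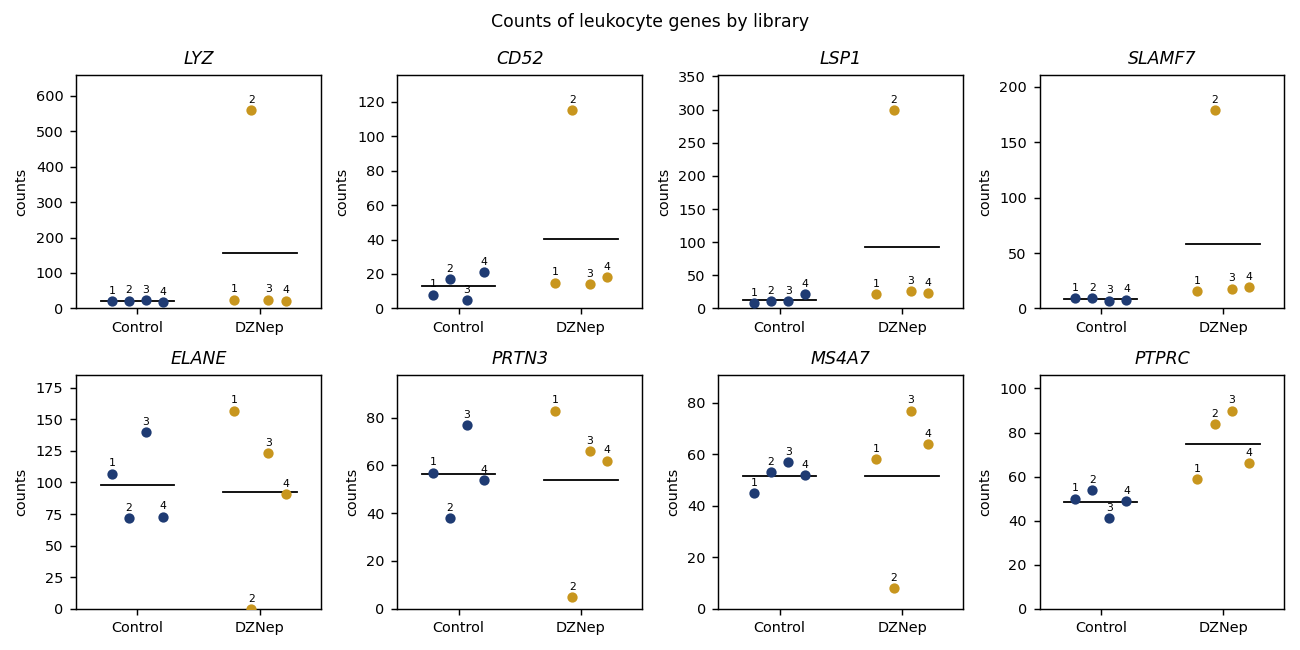
Counts by library (linear axes from 0) of LYZ, CD52, LSP1, SLAMF7, ELANE, PRTN3, MS4A7 and PTPRC, with replicate numbers and the group mean as a black line. DZNep replicate 2 is the highest library for the genes of the upper row, the lowest for ELANE, PRTN3 and MS4A7 (0, 5 and 8 counts), and within its group for PTPRC.

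The nearest profiles to CORO1A were those of METTL7B (0.0943), DEF8 (0.121) and B9D2 (0.122). METTL7B had 212 to 447 counts in Control and 741 to 917 in DZNep, DEF8 had 1455 to 2644 and 3842 to 5627, and B9D2 had 81 to 141 and 292 to 444. For PTPRC the nearest were ENSG00000250027 (0.109), GRM3 (0.113) and CILP (0.113), all with at most 29 counts in a library. At such counts a like profile can arise from counting error.

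The remaining genes of the T cell receptor pathway were read from a list of 36 surface and signalling genes, of which 19 passed the filter. A gene was called when edgeR's adjusted p was under 0.05 and its log2 fold change was over 1 or under -1, which held for 10.6% of all genes in the higher and 13.5% in the lower direction. Of the 19 genes, 2 were called higher (TXK and VAV1) and 2 lower (SH2D2A and CD8A), shares close to those of all genes. The median log2 fold change was 0.18 against -0.03 over all genes. TXK, a TEC family kinase of T cells, rose from 2, 6, 6 and 3 counts in Control to 53, 50, 38 and 25 in DZNep, a log2 fold change of 3.03 ± 0.36 (SE, edgeR adjusted p = 0.000148). VAV1, an exchange factor acting below LCK, rose by 1.04 ± 0.22 on the log2 scale (edgeR adjusted p = 0.00428). SH2D2A, an adaptor that binds LCK, fell by 2.73 ± 0.20 (edgeR adjusted p = 1.2e-05), and CD8A, the co-receptor chain that brings LCK to the receptor, fell by 1.13 ± 0.25 (edgeR adjusted p = 0.0048). The summed level of the list was 463 to 480 CPM in Control and 430.2 to 504 CPM in DZNep libraries. DZNep replicate 2 was the lowest, and the other 3 DZNep libraries, at 497 to 504 CPM, were above Control. TXK passed the filter on low counts through the DZNep libraries alone, as did IL2RG, CD22, BLNK and MRC1 below, so these calls are not independent of the filter. The count of higher genes was 4 without Control replicate 4 and 1 without DZNep replicate 4.

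The next kinase in the pathway, ZAP70, which binds the phosphorylated CD3 and zeta chains, had 1, 3, 4 and 12 counts in Control and 14, 14, 11 and 19 in DZNep. Its log2 fold change was 1.32 ± 0.58 (SE, edgeR adjusted p = 0.0956). With the replicate number as a block (replicate block), the adjusted p was 0.02 and ZAP70 was called, where 11.7% of all genes were called higher and 14.3% lower. LAT, the membrane scaffold that ZAP70 phosphorylates, was at -0.26 ± 0.52 (edgeR adjusted p = 0.721), and CD4 at -0.36 ± 0.37 (edgeR adjusted p = 0.474). CD2 had 0 counts in Control and 2, 0, 2 and 3 in DZNep, at or under the floor.

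The filter removed 17 of the 36 T cell genes for low counts, as it did CD3E. When all genes with at least 1 count were kept, 8 of the 36 were called higher (22.2%, against 7.37% of all 40246 genes tested) and 2 lower (against 7.67%). With DESeq2 7 of 31 were higher (22.6%, against 10.1%) and 2 lower (against 10.5%). The genes added included CD5, GRAP2, SIT1, THEMIS and UBASH3A, of which all but SIT1 were also called with DESeq2. They are named after their values were seen, and all were at very low counts. CD5, an inhibitory receptor, had 1, 0, 3 and 0 counts in Control and 5, 17, 17 and 10 in DZNep. THEMIS, a T cell adaptor, had 2, 0, 0 and 0 against 9, 14, 10 and 8. Both genes were above Control in all 4 DZNep libraries, as CD3E, CD3G and LCK were, and no test compared the list with other genes of the same level. In the full list 7 genes had no counts in Control and some in DZNep, namely CD2, CD28, ICOS, CTLA4, SIT1, GRAP2 and UBASH3A. Of all 40246 genes with at least 1 count, 12.9% had none in Control and some in DZNep, and 6.59% the reverse.

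Transcripts of the receptor chains themselves were at low counts in all libraries. TRAC, the alpha chain constant segment, had 2, 4, 4 and 4 counts in Control and 9, 7, 12 and 12 in DZNep. TRBC1 had 5 counts in Control and 3 in DZNep in all, and TRBC2 had 23 and 5. The alpha segment was thus higher and the second beta segment lower in all DZNep libraries. However, TRBC1 and TRBC2 are near-identical copies, and reads that match both are left out when only uniquely mapped reads are counted. Named after their values were seen, TRGC1, a gamma chain segment, had 3, 0, 1 and 2 counts in Control and 20, 8, 22 and 8 in DZNep, and TRDC, the delta chain segment, had 0 in Control and 6, 9, 3 and 0 in DZNep. TRGC1 was thus above Control in all 4 DZNep libraries, and its near-identical copy TRGC2 had at most 3 counts. None of the 6 segments passed the filter, while DESeq2, with its own filter, called TRGC1 higher and TRBC2 lower among 5 tested.

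Of the transcription factors known from T cell development, GATA3, RUNX1 and IKZF1 are given whatever their values. GATA3 was the highest of them, and other genes of the list were expressed too. GATA3 had 1296 to 2024 counts in Control and 2467 to 2851 in DZNep, with a log2 fold change of 0.49 ± 0.24 (SE, edgeR adjusted p = 0.121). RUNX1 had 201 to 304 counts in Control and 267 to 381 in DZNep. Its log2 fold change was 0.15 ± 0.15 (edgeR adjusted p = 0.447), and that of IKZF1 was -0.69 ± 0.37 (edgeR adjusted p = 0.169). With the replicate block the adjusted p was 0.00256 for GATA3 and 0.0316 for IKZF1, both still under a log2 fold change of 1 in size. Of 19 T lineage transcription and recombination genes tested, 2 were called higher (10.5%, against 10.6% of all genes) and 1 lower (5.26%, against 13.5%). The higher genes were TBX21 (1.44 ± 0.35, edgeR adjusted p = 0.00829) and LYL1 (1.22 ± 0.38, edgeR adjusted p = 0.0251). The lower gene was LMO1 (-1.32 ± 0.33, edgeR adjusted p = 0.00937). TBX21 and LYL1 reached the filter's count in 1 and 2 Control libraries and in 4 DZNep libraries. The median of the list was 0.30. The higher count was 1 without Control replicate 1, Control replicate 3 or DZNep replicate 1, and the lower count was 2 without Control replicate 4 or DZNep replicate 3.

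Markers of other blood cells were counted in the same way beside CD79B, PTPRC, CD52 and LYZ. Of 27 pan-leukocyte genes tested, 1 was called higher (3.70%, against 10.6% of all genes). It was IL2RG, the common cytokine receptor chain, with a log2 fold change of 2.52 ± 0.41 (edgeR adjusted p = 0.000815). By edgeR and by DESeq2 0 were lower, while 6 had an unadjusted p under 0.05 in either direction, against 48.8% of all genes. Their summed level was 104 to 133 CPM in Control and 78.5 to 158 CPM in DZNep, or 122 to 158 CPM without DZNep replicate 2. CD69 and PTPRCAP, the gene of a protein that binds CD45, had no counts in any library.

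Of 13 B cell genes tested, CD22, a lectin that dampens B cell receptor signalling (3.28 ± 0.54, edgeR adjusted p = 0.000946), and BLNK, the adaptor below the receptor (1.65 ± 0.42, edgeR adjusted p = 0.0098), were called higher. CD72 (-1.15 ± 0.37, edgeR adjusted p = 0.0287) and VPREB3 (-1.79 ± 0.54, edgeR adjusted p = 0.0228) were called lower. These are 15.4% in each direction, against 10.6% higher and 13.5% lower over all genes. VPREB3 reached the filter's count in 4 Control libraries and 1 DZNep library, and CD22 and BLNK in DZNep libraries alone. The calls of VPREB3, CD22 and BLNK are thus not independent of the filter. MS4A1, which encodes CD20, had no counts. The called B cell genes thus moved in both directions, and the summed level of the list was 18.8 to 34.5 CPM in Control and 20.6 to 31.2 CPM in DZNep. Of these genes IGKC, the immunoglobulin kappa constant segment, named after its values were seen, had 1 and 3 counts in replicate 1 of Control and DZNep and 198 to 266 in the other 6 libraries. The lower count was 0 without Control replicate 1, Control replicate 4, DZNep replicate 1 or DZNep replicate 2, and 1 without DZNep replicate 3.

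Of 20 myeloid genes tested, CD33 (1.59 ± 0.35, edgeR adjusted p = 0.00454) and MRC1, the macrophage mannose receptor, were called higher (10%, against 10.6% of all genes). MRC1 had 0, 1, 1 and 0 counts in Control and 34, 30, 23 and 18 in DZNep (5.20 ± 0.57, edgeR adjusted p = 9.5e-05), so unlike LYZ it was high in every DZNep library. By edgeR and by DESeq2 0 were lower, and 3 had an unadjusted p under 0.05 (48.8% of all genes). CD14 (-0.49 ± 0.51, edgeR adjusted p = 0.470) and the myeloid regulator SPI1 (0.11 ± 0.24, edgeR adjusted p = 0.731) were not called. The summed level of the list was 44.2 to 60.2 CPM in Control and 30.4 to 59.6 CPM in DZNep, or 42.6 to 59.6 CPM without DZNep replicate 2.

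**Figure D4:**
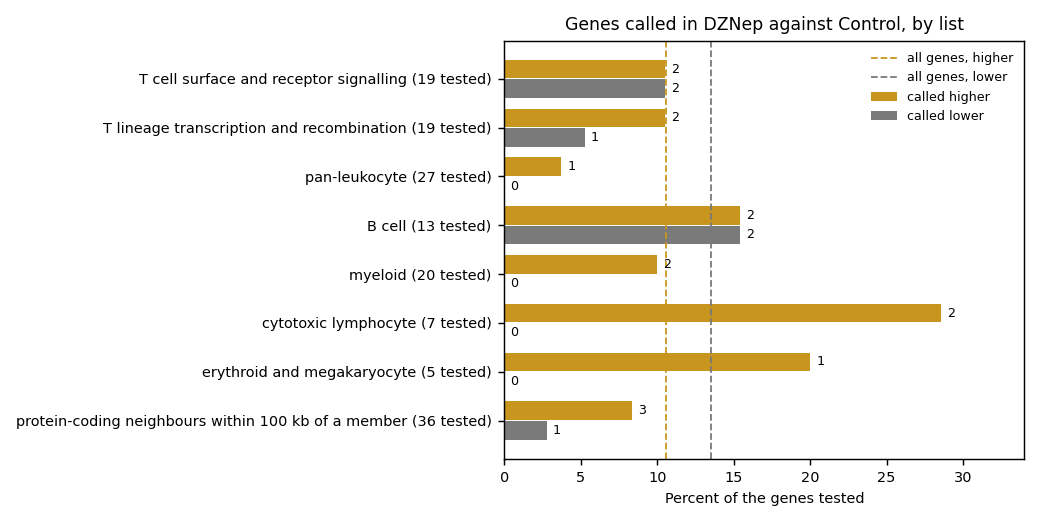
Share of the tested genes of each list called higher or lower in DZNep (edgeR adjusted p under 0.05 and a log2 fold change beyond 1 or -1), with the number of genes at each bar. Dashed lines are the shares over all 19171 genes, 10.6% higher and 13.5% lower. Each bar rests on at most 3 genes.

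Because CD3E, CD3G and CD3D lie together, the protein-coding genes within 100 kb of any marker gene were examined. Of 50 such genes 36 were tested, and 3 were called higher (8.33%) and 1 lower (2.78%), against 10.6% and 13.5% of all genes. The median log2 fold change was 0.17, against -0.03 over all genes. Next to the CD3 genes, MPZL2, an adhesion protein of epithelia, had 19, 30, 32 and 25 counts in Control and 122, 135, 140 and 110 in DZNep, a log2 fold change of 2.03 ± 0.20 (SE, edgeR adjusted p = 5.8e-05). ATP5MG and UBE4A, which lie in the same interval, were at -0.15 ± 0.29 and 0.09 ± 0.47 (edgeR adjusted p = 0.700 and 0.892). MPZL3, beside MPZL2, was at 0.20 ± 0.16 (edgeR adjusted p = 0.349). KMT2A, near CD3G and CD3D, was at -0.51 ± 0.17 (edgeR adjusted p = 0.0348). KMT2A was below Control in all 4 DZNep libraries, but its log2 fold change was under 1 in size. In this stretch MPZL2 was thus called and these neighbours were not. JAML, an adhesion molecule of leukocytes near CD3E, did not pass the filter, with 0, 2, 0 and 0 counts in Control and 12, 7, 16 and 14 in DZNep.

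Beside LCK, TXLNA was called higher (1.22 ± 0.21, edgeR adjusted p = 0.00128), and near CORO1A this was TBX6, a transcription factor gene (1.52 ± 0.27, edgeR adjusted p = 0.00144). Near CD79B the direction was opposite, since SCN4A, the sodium channel of skeletal muscle, had 142, 254, 236 and 133 counts in Control and 68, 67, 75 and 35 in DZNep and fell by 1.88 ± 0.24 on the log2 scale (edgeR adjusted p = 0.000205). On the other side of CD79B lies the growth hormone cluster. There GH2 had 0, 3, 0 and 0 counts in Control and 7, 10, 13 and 22 in DZNep. These counts are uncertain, because reads that also match its near-identical copies are left out when only uniquely mapped reads are counted. JAML and GH2 are named after their values were seen. The count of higher neighbours was 5 without Control replicate 2, 3 or 4. The lower count was 3 without Control replicate 2, 2 without Control replicate 4 or DZNep replicate 4, and 2 with the replicate block, which added NPIPB13.

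**Figure D5:**
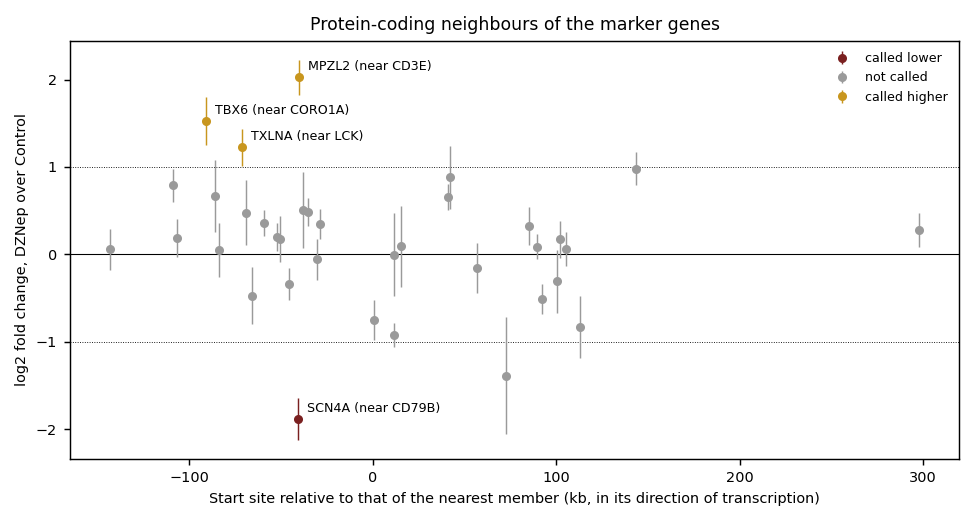
Log2 fold change (DZNep over Control) of the 36 tested protein-coding genes within 100 kb of a marker gene. It is set against the distance in kb between their start and that of the nearest marker gene, in its direction of transcription. Bars are the SE, approximated from edgeR's log2 fold change and F statistic. Distances between starts can exceed 100 kb for long genes. Called genes are coloured and named, 3 higher and 1 lower, and dotted lines mark a log2 fold change of 1 and -1.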

How the data were processed

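RNAseq was measured in 4 Control and 4 DZNep libraries of HEK293T cells, grouped by the labels. The authors obtained paired 150-base reads, used Trimmomatic 0.36 for trimming and STAR 2.5.2b for alignment to GRCh38, and counted uniquely mapped exonic reads per gene (featureCounts, Subread 1.5.2). The annotation release and strandedness are not given in the sources used here. The authors deposited raw counts of 57500 genes, which were used throughout, and a signal table of 19118 genes. Each deposited signal value was checked to equal the count divided by 1 factor per library (largest relative deviation 5.01e-15), for genes with at least 81 counts. Symbols were matched to GENCODE 44 for 56410 genes.

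The 10 genes and the 9 gene lists were chosen with earlier results of these data known. The main test was edgeR 4.0.16 (R 4.3.3), quasi-likelihood with TMM factors on the genes passing filterByExpr. The SE of its log2 fold changes is an approximation, the size of the log2 fold change divided by the square root of the test's F statistic. A gene was called at a Benjamini-Hochberg adjusted p under 0.05 with a log2 fold change beyond 1 or -1. On counts simulated for this comparison, with 200 of 18774 tested genes changed 4-fold, 176 were recovered and 9 unchanged genes were called. The changed genes were drawn only from genes with expected counts well above those of CD3E, CD3G, LCK, CD79B or TXK in Control. This recovery therefore does not apply to genes at such low counts. DESeq2 1.42.0, other normalizations, filters and neighbour distances, the replicate block and leaving out each library were alternatives. Genes named were the 10 markers, 15 preset genes of the lists, from each list up to 3 called genes per direction with the highest average log2 CPM, and the 3 tested genes nearest in profile to each of the 3 markers with the highest mean CPM. Any further gene was picked with its values in view. Not every gene of the lists is reported here. The order per kb, the list sums and the count of markers above Control without DZNep replicate 2 were added after seeing the data.

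Both groups carry replicate numbers 1 to 4 in the labels. For replicate numbers 2, 3 and 4, libraries of the same number deviated together from their group means (correlations of 0.597, 0.533 and 0.751). For number 1 the correlation was 0.151, and Control replicate 1 correlated more with a DZNep library of another number. The numbers were treated as pairs in the replicate block, which the main test lacks because the methods name none. Whether a shared number marks a true pair was not tested. The methods call the replicates biological but do not say that they came from separate cultures, and p-values measure only the spread between these libraries. Libraries of a group differed by more than sampling noise (chi-square per degree of freedom of at least 26.9). Intervals and floors are exact or counting limits and cover counting error only. Promoters are RefSeq windows on GRCh38.p14.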

Additional observations from a re-analysis of the deposited data

Results flagged for a closer look

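The values below were far from the other 3 libraries of their group by Dixon's criterion (the gap to the nearest library over the range of the group). Of 40 groups of 4 examined, 4 met it, and chance does so in about 1 in 20 groups. LYZ in DZNep replicate 2 (11.8 CPM) had a gap over range of 0.993, and CD52 in the same library (2.42 CPM) had 0.900. The summed level of the T cell surface and receptor signalling list was low in DZNep replicate 2 (430.2 CPM, against 497 to 504 CPM in the other DZNep libraries), with 0.905. The summed level of the pan-leukocyte list was low in Control replicate 3 (103.7 CPM), with 0.847.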

How the results depend on the processing

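The sign of each marker gene's fitted log2 fold change was kept under every alternative run. Without DZNep replicate 2, however, the values of LYZ (0.02 ± 0.33, SE) and CD52 (0.14 ± 0.52) were smaller than their SE, so no direction is read from them. With the replicate block the value of LYZ was 1.29, against 2.52 in the main test. Leaving out 1 library at a time, it ranged from 1.05 to 1.41 for CORO1A, 0.18 to 0.54 for PTPRC, 2.84 to 4.28 for LCK, 3.78 to 5.17 for CD79B, 0.02 to 2.89 for LYZ and 0.14 to 1.69 for CD52, the lowest values of the last pair without DZNep replicate 2. Among the lists and all genes, 46 recomputed counts moved by more than 1.5 times and 210 did not. Filters and distances change which genes are tested, and the cause of the other moves was not tested.

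With at least 10 counts in every library, 1141 of all 15870 genes tested were called higher. The higher counts were 1 for T cell surface and signalling, 0 for T lineage, pan-leukocyte, B cell and erythroid genes, and 1 each for myeloid and cytotoxic genes. In that setting 1 B cell gene was lower. Keeping genes with at least 1 count gave 8 T cell surface, 1 T lineage, 2 pan-leukocyte, 3 erythroid and 6 neighbouring genes higher. In that setting 7.37% of all genes were higher. DESeq2 gave 7 T cell surface, 4 B cell, 2 pan-leukocyte, 3 erythroid and 6 neighbouring genes higher, where 10.1% of all genes were higher. Neighbours within 50 kb held 1 higher gene, and those within 200 kb held 7 higher and 3 lower. Over all genes 10.6% were higher and 13.5% lower. The number of genes tested changes with the distance and is not given here, so nothing is read from these counts. With the replicate block, 2 neighbours were lower in place of 1, ZAP70 was added to the T cell genes, and no other list count moved by over 1.5 times, with 2243 genes higher and 2736 lower overall. The share of called genes that were higher was 44.1%, and 36.9% with at least 10 counts in every library.

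Leaving out 1 library at a time, the genes called higher ranged from 1936 to 2383 and lower from 2322 to 2993 over all genes. The ranges were 1 to 4 higher and 2 to 2 lower for T cell surface genes, 1 to 2 higher and 1 to 2 lower for T lineage, 1 to 1 and 0 to 1 for pan-leukocyte, 2 to 3 and 0 to 2 for B cell, 2 to 2 and 0 to 0 for myeloid, 1 to 3 and 0 to 0 for cytotoxic, 1 to 1 and 0 to 0 for erythroid, and 3 to 5 and 1 to 3 for neighbouring genes. The cytotoxic count was 1 without DZNep replicate 1 or 3. The pan-leukocyte lower count was 1 without Control replicate 2, Control replicate 3 or DZNep replicate 4. Depth limits CD3D and CD247, whose counts were at or near the floor of 3, and the Control levels of CD3E, CD3G, LCK and CD79B.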

Other observations

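Cytotoxic lymphocyte and erythroid or megakaryocyte genes, which hold none of the 10 markers, were mostly too low to test. Of 7 cytotoxic genes tested 2 were called higher, CTSW, a cathepsin of killer lymphocytes (log2 fold change 2.67 ± 0.52, edgeR adjusted p = 0.00258), and EOMES, a T-box factor (1.01 ± 0.23, edgeR adjusted p = 0.00546), and 0 lower by edgeR and by DESeq2, with 2 at an unadjusted p under 0.05 (48.8% over all genes). The higher share was 28.6%, against 10.6% of all genes, and the lower share 0%, against 13.5%. CTSW passed the filter on low counts through the DZNep libraries alone. CTSW had 4, 2, 1 and 1 counts in Control and 15, 21, 16 and 13 in DZNep, above Control in all 4 libraries.

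Of 5 erythroid and megakaryocyte genes tested 1 was called higher (20%, against 10.6% of all genes). It was GFI1B, a transcriptional repressor that acts in both lineages, with 7, 5, 6 and 6 counts in Control and 39, 42, 56 and 42 in DZNep (2.61 ± 0.35, edgeR adjusted p = 0.000311). GFI1B reached the filter's count in 1 Control library and in 4 DZNep libraries. By edgeR and by DESeq2 0 were lower, and 2 had an unadjusted p under 0.05. The globin genes HBB, HBD and HBG1 and the glycophorin gene GYPB had no counts in any library.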
